A study of Mus musculus with 6 samples.

Results

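A set of 10 genes of the epithelial-mesenchymal transition (EMT) were followed by RNA-seq in mouse embryos labelled embryonic day 7.5. Wild-type embryos (WT) gave 3 libraries, and embryos that carry the S254D allele of Rnf111 as a knock-in (KI) gave another 3. The set was chosen by gene symbol: the epithelial adhesion genes Cdh1 and Epcam, the mesenchymal genes Cdh2, Cdh11 and Vim, and the transcription factors Snai1, Snai2, Twist1, Zeb1 and Zeb2. All 10 symbols were found among the 21877 of the table, and all 10 were among the 10104 genes tested. Rnf111, also called Arkadia, is a ubiquitin ligase that promotes signalling by Nodal and other TGF-beta ligands. The table gives RPKM, reads normalised to transcript length and to sequencing depth. The sources used here do not give zygosity, sex or litter, nor how many embryos went into a library. The p-values therefore reflect the spread among these 6 libraries, some of which may be technical.

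In the gastrulating mouse embryo, cells of the epiblast, an epithelium, pass through the primitive streak, lose E-cadherin and leave as mesenchyme. Snai1 is needed for this step in mouse, where it represses the E-cadherin gene, and the same group of repressors is used again when neural crest cells leave the neural tube and when the heart valves form. Snail and Zeb proteins bind the DNA motif CACCTG, a form of the E-box. TGF-beta signals, which Rnf111 promotes, are known inducers of several of these factors.

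Promoter windows for 5 of the 10 genes (Epcam, Vim, Snai1, Twist1 and Zeb2) were matched in the RefSeq table on GRCm38.p6. The 250 bases before the transcript start are shown for Epcam, an epithelial gene with matches to the motif of its known class of repressors, and for Snai1 and Twist1, factors whose levels were lower in KI 1 and KI 3 than in WT 1 and WT 2. Each is written 5′ to 3′ on its own strand, with CACCTG or its reverse complement CAGGTG in capitals.
Epcam: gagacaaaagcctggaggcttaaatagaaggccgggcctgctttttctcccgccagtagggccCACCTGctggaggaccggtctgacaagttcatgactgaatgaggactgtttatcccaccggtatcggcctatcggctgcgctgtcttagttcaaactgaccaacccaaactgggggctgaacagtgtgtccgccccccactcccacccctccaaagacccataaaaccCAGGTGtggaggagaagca
Snai1: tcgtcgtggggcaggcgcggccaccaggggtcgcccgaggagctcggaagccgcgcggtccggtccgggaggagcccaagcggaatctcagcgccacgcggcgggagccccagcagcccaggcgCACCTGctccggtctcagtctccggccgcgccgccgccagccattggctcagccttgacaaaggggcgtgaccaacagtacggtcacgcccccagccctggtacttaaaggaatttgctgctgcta
Twist1: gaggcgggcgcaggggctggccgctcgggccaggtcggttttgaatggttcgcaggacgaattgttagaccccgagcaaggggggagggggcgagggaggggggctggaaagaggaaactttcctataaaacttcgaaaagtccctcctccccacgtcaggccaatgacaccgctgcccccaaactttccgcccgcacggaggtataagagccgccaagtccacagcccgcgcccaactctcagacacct
The windows lie at chr17:87635729-87635978, chr2:167537945-167538194 and chr12:33957421-33957670, all on the plus strand. Epcam held 2 matches, whose first letters lie 187 and 19 bases before the start. Snai1 held 1 match, 126 bases before its start, and Twist1, Vim and the 4 windows of Zeb2 held 0. All 250 bases of the Vim window lie in annotated exons of Vim. The Zeb2 windows hold 0, 98, 119 and 191 bases of annotated Zeb2 exons, so these absences are in part of transcribed sequence. Over all 32851 windows of the same length, 17.2% held the motif at least once and 2.06% held it at least 2 times. Cdh1, Cdh2, Cdh11, Snai2 and Zeb1 had no entry.

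The libraries WT 3 and KI 2 stood apart from the other 4. Depth was between about 9763000 reads in KI 2 and 13559000 reads in WT 3. Across genes, WT 3 correlated with the other 5 at Pearson's r between 0.939 and 0.952, and KI 2 with the others except WT 3 at 0.963 to 0.973, against 0.988 to 0.996 among WT 1, WT 2, KI 1 and KI 3. KI 2 nearly lacked the markers of visceral and yolk sac endoderm, whose 11 listed genes summed to 30.9 RPKM there and to 530 to 1350 in the other libraries, highest in WT 3. Summed over 4 Y-linked genes (Ddx3y, Eif2s3y, Kdm5d and Uty), the log2(RPKM + 1) levels of WT 1, 2 and 3 were 12.8, 13 and 14.5, and those of KI 1, 2 and 3 were 5.5, 13.5 and 0. Markers of the labelled stage were partly missing: the epiblast factor Pou5f1 was listed at 0 in all libraries but KI 3 (0.0386 RPKM) and the streak gene Eomes did not exceed 0.0835. From the same lists, the epiblast marker Otx2 (3.63 to 10.8 RPKM) and the streak genes T (6.24 to 12.5) and Mixl1 (2.72 to 17.0) were present. So were later genes such as Meox1 of the somites (14.1 to 33.7) and Myl7 of the heart (58.7 to 201). Among the other somite markers, Myf5 was at 2.7 to 14.3, while Pax1 and Uncx did not exceed 0.474 and 0.144. Of 10 trophoblast markers, Tpbpa, Prl3d1 and Prl2c2 were at 0 in every library, while Plac1 (3.96 to 16.5 RPKM) and Cdx2 (1.96 to 7.4) were present, and the list summed to 7.92 to 22.5. Of 9 decidual markers, Gzmd, Gzme, Gzmf and Gzmg were at 0 in every library, Prl8a2 did not exceed 0.32, and Des (1.67 to 7.42) and Alpl (1.81 to 3.73) were present, with list sums of 4.53 to 11.8.

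The levels themselves placed the 10 genes in a wide order. In WT, Epcam stood highest at 37.7 ± 1.93 RPKM (SD, n = 3), above Vim at 20.3 ± 5.40 and Cdh2 at 15.7 ± 5.73. Cdh11 followed at 8.52 ± 1.84, Twist1 at 6.10 ± 0.151, Zeb1 at 5.47 ± 1.67, Zeb2 at 3.31 ± 0.655 and Snai1 at 3.12 ± 2.15. Cdh1, at 1.81 ± 0.378, and Snai2, at 1.78 ± 0.726, were the lowest. Apart from the step from Epcam to Vim and that from Cdh11 to Twist1, the mean ± SD ranges of neighbours in this order overlapped. These SDs are between libraries. Within each WT library Vim exceeded Cdh2, Cdh2 exceeded Cdh11 and Zeb1 exceeded Zeb2. The order of Twist1 and Zeb1, of Zeb2 and Snai1, of Snai1 and Cdh1, and of Cdh1 and Snai2 differed among the WT libraries. The epithelial genes thus stood near both ends: 83.1% of tested genes had a lower mean RPKM than Epcam over the 6 libraries, and 13.3% had a lower one than Cdh1.

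**Figure D1:**
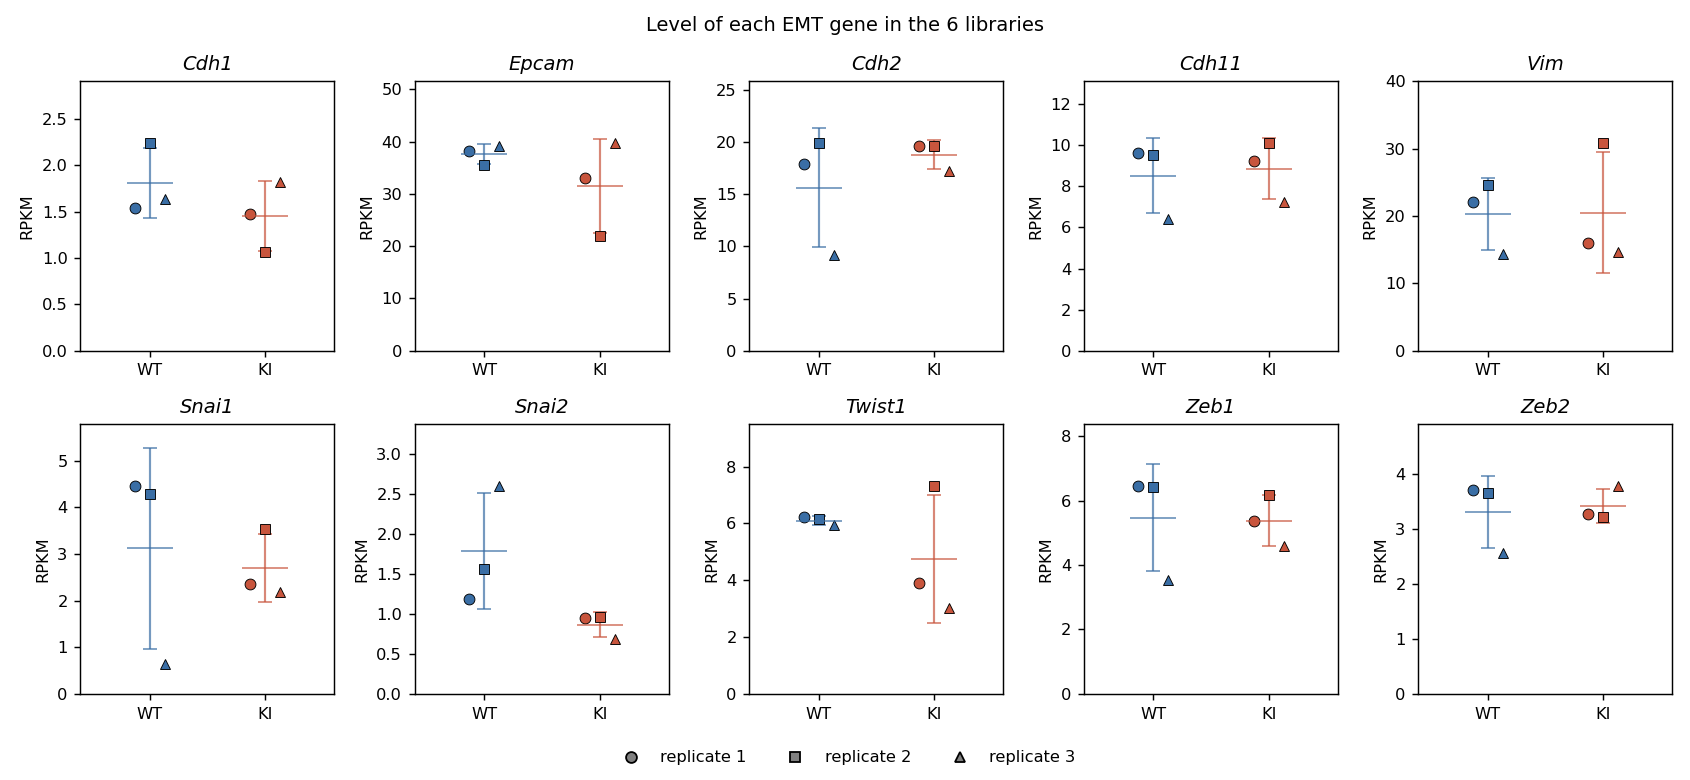
RPKM of each of the 10 genes by genotype, each panel with its own linear axis from 0. Circles, squares and triangles are replicates 1, 2 and 3, and the horizontal mark with bars is the mean ± SD (n = 3). Snai2 is the only gene of the 10 in which all KI points (0.687 to 0.963) lie below all WT points (1.19 to 2.59). Snai2 reached the expression minimum of 1 RPKM only in its WT libraries, so nothing is read from this separation.

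No gene of the set passed the test between KI and WT. Snai2, the factor known as Slug, had the lowest unadjusted p, with a KI mean 0.486 times the WT mean. With limma on log2(RPKM + 1) and Benjamini-Hochberg adjustment over all tested genes, 0 of 10 members and 0 of 10104 genes (0%) had an adjusted p under 0.05, and the lowest adjusted p among the members was 0.999. At an unadjusted p under 0.05 there was 1 member, lower in KI, where 0.574% of all tested genes were lower in KI at that level (58 genes, of 121 or 1.2% in either direction). That member was Snai2, which reached the expression minimum only through its WT libraries, so nothing is read from its count against this share. Of the 10 differences 5 were above and 5 below 0, with a median of -0.01, and over all tested genes 5940 (58.8%) were above and 4164 (41.2%) below 0, with a median of 0.05. The median 95% interval of a member reached 0.556 to each side on the log2 scale, before any adjustment. Leaving out WT 3 turned the sign of 5 members (Cdh2, Cdh11, Snai1, Zeb1 and Zeb2), and the count of genes at an unadjusted p under 0.05 went from 121 to 457 without WT 3 and to 62 without KI 1, with 0 adjusted calls in each case.

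Among the epithelial genes, E-cadherin and Epcam were lowest in the same library, KI 2. Cdh1, which encodes the cadherin of epithelial adherens junctions, was at 1.54, 2.24 and 1.64 RPKM in WT 1, 2 and 3 and at 1.48, 1.07 and 1.82 in KI 1, 2 and 3, from 48 to 130 reads. The groups overlapped. With 48 reads the KI 2 value has a 95% interval from counting alone of 0.793 to 1.43 RPKM (exact Poisson). This interval overlaps those of WT 1 (1.25 to 1.89), WT 3 (1.34 to 2.0) and KI 1 (1.17 to 1.85). It lies below those of WT 2 (1.87 to 2.66) and KI 3 (1.47 to 2.22). The KI minus WT difference was -0.20 on the log2(RPKM + 1) scale (SE 0.19, 95% interval -0.64 to 0.25), and leaving out 1 library at a time gave -0.30 to -0.08. Epcam, a homophilic adhesion protein of early and simple epithelia, was at 38.3, 35.5 and 39.2 RPKM in WT 1, 2 and 3 and at 33.1, 21.9 and 39.7 in KI 1, 2 and 3. The KI group held both the highest and the lowest value. Its difference was -0.29 (SE 0.23, 95% interval -0.82 to 0.24), which became -0.05 without KI 2, -0.02 without WT 3 and KI 2, and -0.71 (SE 0.182; limma, adjusted p = 0.736) with the summed Y-linked level as a covariate, an alternative chosen after seeing the data. In bulk samples, fewer cells of a type and less RNA per cell cannot be told apart.

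The KI 2 library was low in other epithelial genes as well. Its deviation from the mean of the other 5 libraries was -0.74 on the log2(RPKM + 1) scale for Epcam and -0.40 for Cdh1, where the median over all tested genes was -0.02, and 4.33% of tested genes deviated further down than Epcam. The simple-epithelium keratins Krt8 and Krt18 were at 150 and 119 RPKM in KI 2 and at 457 to 671 and 329 to 436 elsewhere, and the tight junction gene Cldn6 at 20.2 against 39.6 to 61.9. The endoderm marker Apoa1 was at 0.414 RPKM in KI 2 and at 159 to 458 in the others. Visceral endoderm is itself an epithelium that expresses Cdh1, Epcam and these keratins, and its part in the low KI 2 values was not tested.

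**Figure D2:**
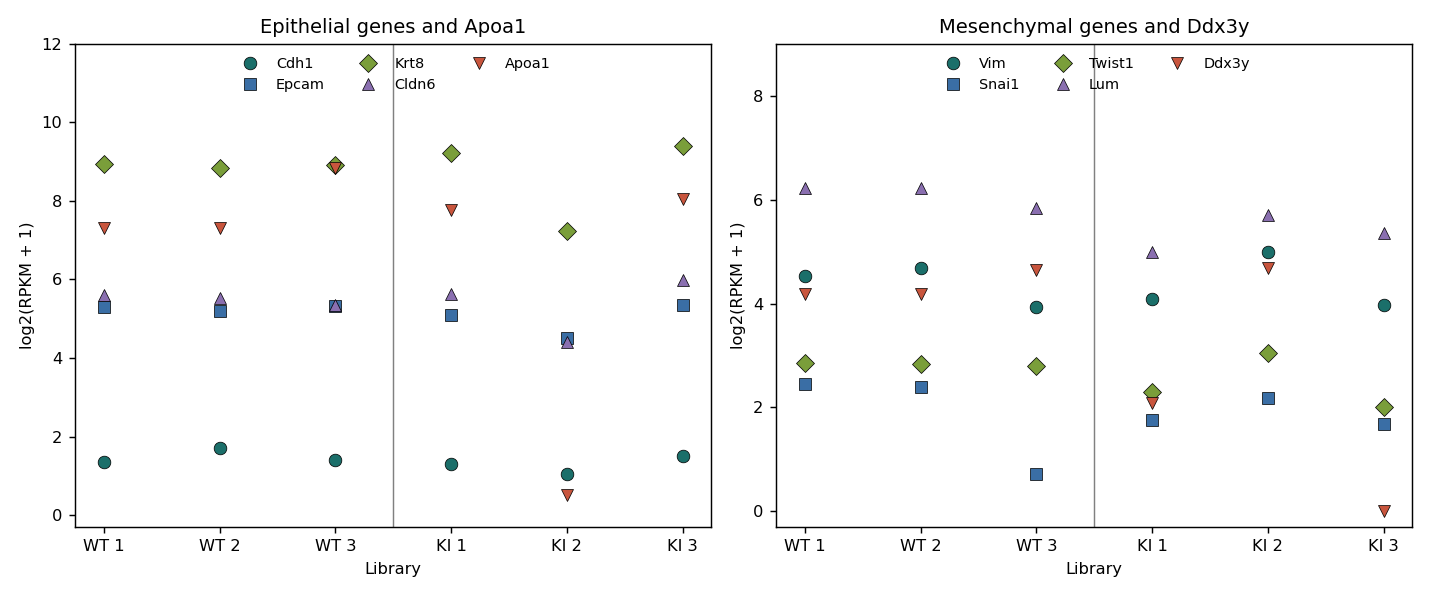
Levels in each library on the log2(RPKM + 1) scale: on the left the epithelial genes Cdh1, Epcam, Krt8 and Cldn6 with the endoderm marker Apoa1, on the right Vim, Snai1, Twist1 and the matrix gene Lum with the Y-linked Ddx3y. Points are single libraries and the vertical line divides WT from KI. All 5 genes on the left are lowest in KI 2, and Twist1 is lowest in KI 1 and KI 3, where Ddx3y is also lowest (3.24 and 0 RPKM).

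The mesenchymal cadherins did not differ detectably between genotypes. Cdh2, or N-cadherin, which replaces E-cadherin in mesoderm and is also the cadherin of the neural tube, was at 17.9, 19.9 and 9.17 RPKM in WT 1, 2 and 3 and at 19.6, 19.6 and 17.2 in KI 1, 2 and 3. WT 3 was the low value, and the other 5 libraries lay close together. The difference of 0.31 (SE 0.28, 95% interval -0.36 to 0.98) became -0.01 without WT 3. Cdh11, a cadherin of loose mesenchyme, was at 9.63, 9.54 and 6.40 RPKM in WT 1, 2 and 3 and at 9.25, 10.1 and 7.23 in KI 1, 2 and 3. Its difference was 0.06 (SE 0.22, 95% interval -0.46 to 0.58), and the sign turned with quantile normalization (-0.01), with median centring (-0.02) and without WT 3 (-0.11) or KI 2 (-0.03).

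The balance of the cadherins, taken as the ratio of Cdh2 to Cdh1 RPKM, was above 1 in every library. The WT libraries 1, 2 and 3 had ratios of 11.6, 8.89 and 5.58, and the KI libraries 1, 2 and 3 had 13.2, 18.2 and 9.43. The groups overlapped. The lowest ratio, in WT 3, came with the lowest Cdh2, and the highest, in KI 2, with the lowest Cdh1. The ratio of Vim to Epcam was also highest in KI 2, at 1.41, against 0.364 to 0.693 in the other 5 libraries.

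Vim encodes vimentin, the intermediate filament of mesenchymal cells, which neural progenitors also express. It was at 22.1, 24.6 and 14.3 RPKM in WT 1, 2 and 3 and at 16, 30.8 and 14.6 in KI 1, 2 and 3, from 800 to 1482 reads. The highest library was KI 2 and the lowest was WT 3, so the groups overlapped at both ends. The means were 20.3 ± 5.40 and 20.4 ± 8.95 (SD, n = 3 each), and the difference was -0.03 (SE 0.32, 95% interval -0.80 to 0.73). Its sign turned without WT 1 (0.04), WT 2 (0.12), KI 1 (0.10) or KI 3 (0.16). KI 2 stood 0.75 above the mean of the other 5 libraries on the log2 scale, higher than 98.5% of tested genes. The neural list of 6 genes summed to 26.8 RPKM in KI 2, to 12.3 in WT 3 and to 15.2 to 20.4 in the others. Its genes did not move alike. Sox2 was at 15.6 in KI 2 and 5.07 to 8.68 elsewhere, with 8.68 in WT 3. Sox1, Sox3 and Zic1 were also highest in KI 2, at 1.63, 1.34 and 2.03. Hes5 was at 4.43 in KI 2 and 0.541 in WT 3, against 6.3 to 9.31 in the others. Pax6 was at 1.73 in KI 2 and 1.46 to 2.02 elsewhere. The part of neural cells in the Vim values was not tested.

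Snai1, the repressor that acts in the mouse primitive streak, was at 4.45, 4.28 and 0.637 RPKM in WT 1, 2 and 3 and at 2.36, 3.54 and 2.19 in KI 1, 2 and 3. The 3 KI values lay below WT 1 and WT 2 and above WT 3. Only 14 reads stood behind the WT 3 value, whose counting interval is 0.348 to 1.07 RPKM. The other 5 libraries rest on 41 to 96 reads, and the lowest of them, KI 3, has an interval of 1.57 to 2.98. Its fold between the highest and the lowest library, 6.98, was the largest of the 10 genes. The KI minus WT difference was 0.02 (SE 0.46, 95% interval -1.07 to 1.11), which turned to -0.55 without WT 3, to -0.14 without KI 2, to -0.05 with quantile normalization and to -0.06 with median centring.

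Snai2, a relative of Snai1 known in mouse for migrating neural crest, was the member whose groups did not overlap. It was at 1.19, 1.56 and 2.59 RPKM in WT 1, 2 and 3 and at 0.946, 0.963 and 0.687 in KI 1, 2 and 3, from 16 to 71 reads. All 3 KI values lay below all WT values, as they did for 2.74% of all tested genes. The means were 1.78 ± 0.726 in WT and 0.865 ± 0.155 in KI (SD, n = 3 each), a difference of -0.55 (SE 0.22, 95% interval -1.06 to -0.04; limma, unadjusted p = 0.0387, adjusted p = 0.999). The gene reached the expression minimum of 1 RPKM only in the 3 WT libraries, so nothing is read from this separation or its unadjusted p. On the recovered reads, where low genes are not damped by the added 1, voom gave -0.97 (SE 0.461, unadjusted p = 0.0718). The counting intervals of neighbouring values overlap, for example 0.813 to 1.68 RPKM in WT 1 and 0.593 to 1.43 in KI 1. WT 3, the highest library for Snai2, was the lowest for Snai1. The 7 neural crest markers summed to 29.0 RPKM in WT 3 and to 31.6 to 35.9 in the others, and Ets1, which other cells also express, made up 22.5 of the WT 3 sum. In WT 3 Sox10 was at 0.218 RPKM (0.591 to 1.38 elsewhere) and Foxd3 at 0.222 (0.0373 to 0.397 elsewhere). The part of neural crest in the Snai2 values was not tested.

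Twist1, a basic helix-loop-helix factor of head mesenchyme and limb mesoderm, had the tightest WT values of the set relative to its mean. It was at 6.22, 6.15 and 5.93 RPKM in WT 1, 2 and 3 and at 3.90, 7.30 and 3.04 in KI 1, 2 and 3. KI 1 and KI 3 lay below every other library, with counting intervals of 3.05 to 4.90 and 2.30 to 3.94 RPKM, and KI 2 lay above all. The difference was -0.38 (SE 0.28, 95% interval -1.03 to 0.28). The summed Y-linked level was 12.8 to 14.5 in the libraries with the higher Twist1 and 5.5 and 0 in KI 1 and KI 3. With that level as a covariate the difference of Twist1 became 0.16 (SE 0.218) and that of Vim 0.46 (SE 0.367), neither of which passed.

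The zinc finger homeodomain factors Zeb1 and Zeb2 varied least among the factors. Zeb1, known for repressing epithelial genes together with CtBP, was at 6.44, 6.42 and 3.55 RPKM in WT 1, 2 and 3 and at 5.37, 6.17 and 4.59 in KI 1, 2 and 3. The KI values lay between WT 3 and the other WT libraries, and the difference was 0.01 (SE 0.25, 95% interval -0.57 to 0.59). It was -0.07 with quantile normalization and with median centring, and -0.23 without WT 3. Zeb2, which binds activated Smad proteins and is also called Sip1, was at 3.71, 3.67 and 2.56 RPKM in WT 1, 2 and 3 and at 3.27, 3.22 and 3.78 in KI 1, 2 and 3. Its range of 1.48-fold was the narrowest of the 10, and the difference was 0.05 (SE 0.19, 95% interval -0.40 to 0.49), with -0.02 under quantile normalization, -0.03 under median centring and -0.09 without WT 3. The exons of Zeb2 share 653 bases with the opposite-strand Zeb2os, and those of Zeb1 share 198 bases with the opposite-strand Gm10125. Use of strand was not given, so reads over these stretches cannot be told apart.

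**Figure D3:**
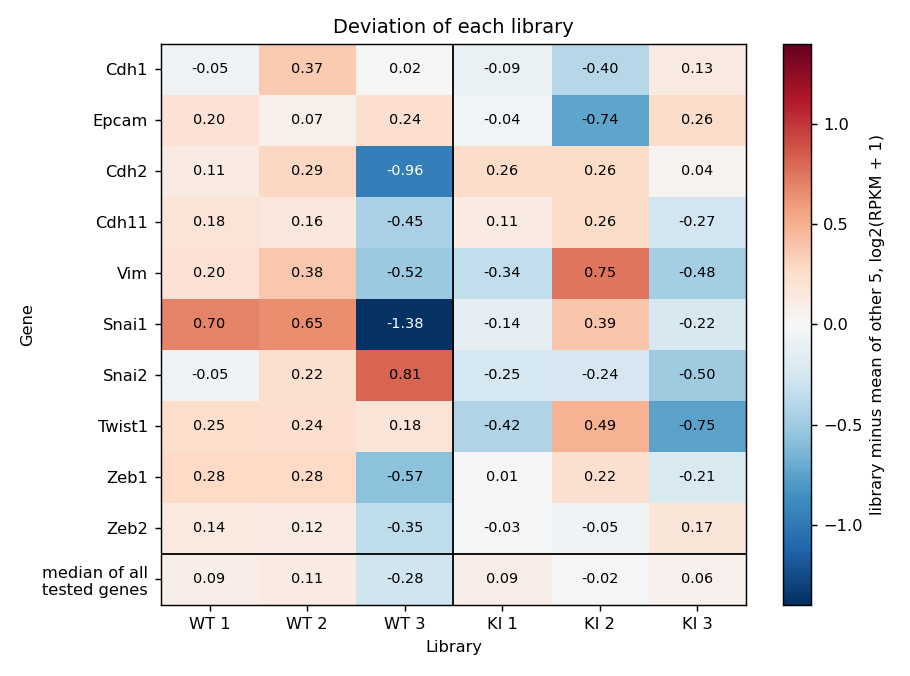
Deviation of each library from the mean of the other 5, on the log2(RPKM + 1) scale, for the 10 genes (rows) and, in the lowest row, the median of all tested genes. Red is higher and blue lower. WT 3 is low for Snai1 (-1.38) and Cdh2 (-0.96) and high for Snai2 (0.81), and KI 2 is high for Vim (0.75) and low for Epcam (-0.74).

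The deviations of WT 3 and KI 2 differed in kind among the 10 genes. In WT 3 the median deviation was -0.40 over the 10 genes and -0.28 over all tested genes, and the members ranged from -1.38 for Snai1 to 0.81 for Snai2. Only 4.4% of tested genes deviated further down in WT 3 than Snai1, and 97.3% deviated less upward than Snai2. In KI 2 the epithelial genes Cdh1 and Epcam were low, Vim (0.75), Twist1 (0.49) and Snai1 (0.39) were high, and Snai2 (-0.24) and Zeb2 (-0.05) were not. KI 1 and KI 3 were both low for Vim (-0.34 and -0.48), Twist1 (-0.42 and -0.75) and Snai2 (-0.25 and -0.50). Of all tested genes, 0.911% lay lower than Twist1 in KI 1 and 1.09% in KI 3.

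Without WT 3 and KI 2, the libraries that stood apart in these data, all 10 differences were below 0. Those of Snai1, Twist1 and Vim were the largest of the set. Snai1 was at -0.71 (SE 0.12, adjusted p = 0.0728), Twist1 at -0.69 (SE 0.14, adjusted p = 0.108) and Vim at -0.58 (SE 0.10, adjusted p = 0.0662) by limma with 2 libraries per group. Of the 10 members, 0 passed, where 0.406% of tested genes did (41 genes). At an unadjusted p under 0.05 there were 5 members (Vim, Snai1, Snai2, Twist1 and Zeb1), all lower in KI, where 6.83% of tested genes were lower at that level. The 4 libraries did not overlap, with KI lower, in 6 members, and in 24.3% of tested genes. Snai2 is in both counts and reached the expression minimum only through its WT libraries. The members were chosen with earlier results of these data known, and the libraries left out stood apart in these same data. Nothing is therefore read from these counts against those shares. The median difference was -0.26 over the 10 genes and -0.02 over all tested genes, of which 55.7% were below 0. Cdh1 (-0.12), Epcam (-0.02), Cdh2 (-0.04) and Zeb2 (-0.05) were nearest to 0 in this fit. The 95% intervals reached from -0.50 to 0.26 for Cdh1 and from -0.26 to 0.21 for Epcam. With all 6 libraries these genes were at -0.20 (Cdh1), -0.29 (Epcam), 0.31 (Cdh2) and 0.05 (Zeb2). In these 4 libraries the summed Y-linked level was 12.8 and 13 for the WT pair and 5.5 and 0 for the KI pair, so genotype and Y-linked level cannot be told apart. Cell type markers moved as well: of the tested visceral and yolk sac endoderm genes, 9 of 10 had differences above 0 (median 0.35), with list sums of 530 and 536 RPKM in WT and 653 and 789 in KI. The endothelial markers had 5 of 5 differences below 0 (median -0.16), with list sums of 22.2 and 23.5 RPKM in WT and 19.4 and 17.7 in KI. Of the paraxial mesoderm and somite markers, 3 of 4 tested were below 0 (median -0.5), as were 5 of 6 cardiac markers (median -0.21). The primitive streak markers had 2 of 2 tested above 0 (median 0.67). The part of these cell types in the members' differences was not tested.

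**Figure D4:**
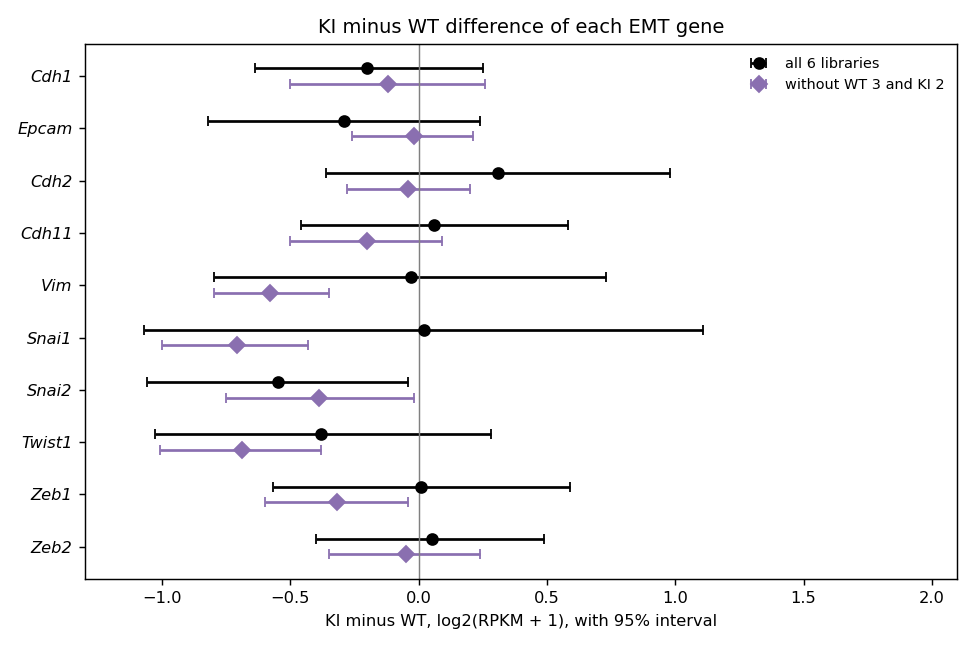
KI minus WT difference of each gene on the log2(RPKM + 1) scale, with 95% intervals from limma, for all 6 libraries (black circles) and without WT 3 and KI 2 (violet diamonds). With all libraries the interval of Snai2 (-1.06 to -0.04) is the only one that leaves out 0. Without WT 3 and KI 2 the intervals of Vim, Snai1, Snai2, Twist1 and Zeb1 lie below 0, and none of these genes passed after adjustment. Snai2 reached the expression minimum only through its WT libraries, so nothing is read from its intervals.

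Other genes of the pathway, from lists written by role with earlier results of these data known, gave 0 calls with all 6 libraries. Among 25 tested genes of epithelial adhesion and polarity, 10 differences were above and 15 below 0, with a median of -0.03. Without WT 3 and KI 2 the balance turned, to 19 above and 6 below 0 with a median of 0.15, and 0 passed. The alpha-catenin gene Ctnna1, which links cadherins to actin, was at 58.0 ± 7.78 RPKM in WT and 57.1 ± 11.7 in KI (SD, n = 3). Of 9 epithelial regulators 4 were high enough to test, with a median of 0.19, and the splicing regulator Esrp1 was at 1.83 ± 0.385 and 1.78 ± 0.329. Among 20 tested mesenchymal and matrix genes, 5 were above and 15 below 0, with a median of -0.08. The smooth muscle actin gene Acta2 was at 206 ± 53.2 RPKM in WT and 177 ± 97.5 in KI. The integrin gene Itgb1 was at 53.9 ± 9.19 in WT and 46.1 ± 7.04 in KI, and the matrix gene Sparc at 18 ± 5.07 in WT and 16.3 ± 1.22 in KI. Lum, a proteoglycan gene, was at 73.6, 73.6 and 56.4 RPKM in WT 1, 2 and 3 and at 30.8, 51.5 and 39.9 in KI 1, 2 and 3, without overlap (difference -0.74, SE 0.22; limma, adjusted p = 0.999). Without WT 3 and KI 2, 18 of these 20 were below 0 and 4 passed as lower (Lum, Postn, Col1a1 and Col3a1), where 0.228% of tested genes did. Nothing is read from this count against that share, as the list was written with those results known. The same limit from Y-linked level applies to these 4 genes.

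Partners and upstream genes of the factors gave no call either. Among 10 tested EMT-related factors and Id genes, 8 differences were above and 2 below 0, with a median of 0.23. The Id genes, whose products bind the dimer partners of Twist1, had the highest levels of these. In WT and KI, Id3 stood at 106 ± 34.6 and 126 ± 14.1 RPKM (SD, n = 3), and for Id2 the levels were 82.6 ± 6.84 and 101 ± 30.5. Id1 stood at 27.0 ± 11.4 and 31.2 ± 4.59. Without WT 3 and KI 2, 3 of these 10 were above and 7 below 0, with a median of -0.22. Among 13 co-repressors and stability regulators of Snail and Zeb proteins, 11 were above and 2 below 0, with a median of 0.09, which became 6 above and 7 below with a median of -0.02 without WT 3 and KI 2. Gsk3b, a kinase that marks Snai1 protein for destruction, was at 91.5 ± 39.2 in WT and 93.4 ± 18.4 in KI, and the deacetylase gene Hdac1 at 69.6 ± 4.26 and 71.6 ± 10.2. Of 18 genes of the gastrulation EMT, 11 were high enough to test, and 7 were above and 4 below 0, with a median of 0.10. Rhoa, which holds the basal side of streak cells to the basement membrane in chick, was at 46.8 ± 2.51 in WT and 46.6 ± 2.55 in KI, and Epb41l5, needed for the streak EMT in mouse, at 9.89 ± 0.583 and 10.3 ± 1.39. The groups did not overlap, with KI higher, in 3 of the 11 genes and in 3.8% of all tested genes. The 3 were the Wnt effector Lef1, the streak factor T and the receptor gene Fgfr1. This list too was written with earlier results known, so nothing is read from that count. T was at 6.80 ± 0.504 in WT and 9.55 ± 2.61 in KI (difference 0.41, SE 0.22, limma, adjusted p = 0.999).

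The genes with the most similar profiles over the 6 libraries were found by the root-mean-square distance of log2(RPKM + 1), each gene centred on its own mean, among 9674 genes. For Cdh1 they were Zfp160, Pabpn1, Cklf, Lypd6b and Prkd1, at distances of 0.0515 to 0.073, where the median gene lay at 0.301. For Vim they were Cped1, Hba-a2, Spp1, Gstm7 and Abhd17c, at 0.0557 to 0.0948, where the median was 0.442. No other of the 10 EMT genes was among them.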

How the data were processed

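Per the labels' protocols, RNA came from oligo(dT) beads and went into a SMARTER mRNA-seq kit. The submitters' processing notes name GRCm39. The aligner, counting tool, annotation and use of strand are not given in the sources used here. Per the labels the table holds raw counts, but what the authors deposited behaves as RPKM. When multiplied by merged exon length in GENCODE M21 (21229 of 21877 symbols matched, 97.0%), between 97.9% and 98.0% of nonzero values under 2000 reads were whole multiples of a single step within 0.05. This gave depth and reads, whose exact Poisson intervals cover counting error only. Zeb2 did not come out whole, so its reads are not given. Of the rows of 20 repeated symbols, that with the greatest mean stayed in.

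The 10104 genes that reached 1 RPKM in 3 or more libraries entered the comparison of KI with WT by limma 3.58.1 (R 4.3.3) on log2(RPKM + 1) with a trend and a robust prior, no covariate, and Benjamini-Hochberg adjusted p under 0.05 as the threshold. The scale understates the change of low genes. The test was checked on simulated data without outlying libraries, so the check does not cover libraries such as WT 3 and KI 2. WT 1 and WT 2, the closest pair, differed by a mean chi-square of 3.70 per gene, where sampling noise gives about 1, so no libraries were merged. The labels name no pairing of libraries, so the main fit has no block. Alternatives covered the pseudocount (0.1), filter, scaling, prior, weights, block, voom on recovered reads and left-out libraries. A Y-linked covariate was added after seeing the data. The fit without WT 3 and KI 2 takes out the libraries that stood apart in these same data, so it is not an independent check.

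The members and lists were chosen with earlier results of these data known. All 10 members are named. From each pathway list the rule named members past the threshold and up to 4 with the highest mean RPKM, of which not all are printed. Postn, Col1a1, Col3a1, T, Fgfr1, Sox10, Foxd3, Kdm5d, Uty and Eif2s3y were named after their values were seen. So were Apoe, Trf, Amn, Pax1 and Uncx. For Cdh1 and Vim the 5 nearest profiles are named.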

Additional observations from a re-analysis of the deposited data

How the results depend on the processing

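No member passed under any of the 16 alternatives, with adjusted p no lower than 0.0662 (Vim, without WT 3 and KI 2). Over all genes, 0 calls became 41 without WT 3 and KI 2 and 93 with library weights, whose estimation stopped before it converged and which gave KI 1 a weight of 7.75 and WT 3 one of 0.11. The other alternatives gave 0 calls over all genes. Of 159 values of members, 126 kept their direction; Cdh1, Epcam and Snai2 kept it throughout. With quantile normalization Cdh11 was at -0.01, Snai1 at -0.05, Zeb1 at -0.07 and Zeb2 at -0.02, and with median centring at -0.02, -0.06, -0.07 and -0.03. Without WT 3 and KI 2 Cdh2 was at -0.04, Cdh11 at -0.20, Snai1 at -0.71, Zeb1 at -0.32 and Zeb2 at -0.05. With library weights Cdh11 was at -0.07, Snai1 at -0.61, Zeb1 at -0.22 and Zeb2 at -0.10. With the Y-linked covariate Vim was at 0.46, Twist1 at 0.16 and Zeb2 at -0.07. With the Y-linked covariate Cdh1 was at -0.43 and Epcam at -0.71. Leaving out 1 library at a time gave ranges of -0.30 to -0.08 for Cdh1, -0.47 to -0.05 for Epcam, -0.70 to -0.35 for Snai2, -0.68 to -0.16 for Twist1, -0.01 to 0.51 for Cdh2, -0.11 to 0.19 for Cdh11, -0.36 to 0.16 for Vim, -0.55 to 0.31 for Snai1, -0.23 to 0.13 for Zeb1 and -0.09 to 0.12 for Zeb2; the cause was not tested. Same-numbered libraries deviated from their group means with correlations of 0.124, -0.0507 and 0.0054, and WT 2 and WT 3 correlated best with another number. These values did not show a clear pairing by number. A shared litter or processing step was not tested. The replicate block gave 0 calls, 139 genes at an unadjusted p under 0.05, and -0.55 for Snai2 (unadjusted p = 0.0628). The lowest read counts behind a value were 14 for Snai1, 16 for Snai2, 48 for Cdh1 and 57 for Twist1. The SE of Snai1 went from 0.46 to 0.185 without WT 3.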
